A study of Mus musculus with 8 samples.

Results

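Cholesterol efflux and lipid handling were followed through 10 genes of the 19024 gene symbols in the deposited matrices of subcutaneous MB49 tumors: Abca1, Abcg1, Apoe, Nr1h3, Mylip, Npc1, Npc2, Soat1, Lpl and Plin2. All 10 were rows of every matrix. The set was put together with earlier values of these data in view, namely that Abca1 was higher in macrophages of Atg7-deleted hosts, so the macrophage values by host genotype are given here as a description with no test. For the 10 genes, tests are given only in other cell classes and between states of macrophages within each tumor.

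The tumors grew from MB49, a mouse urothelial cancer line, injected under the skin of C57BL/6 mice and profiled with a 10x Genomics single-cell 5′ kit. The deleted hosts were C57BL/6 UbcreERT2/+;Atg7f/f mice given tamoxifen, which gives Atg7Δ/Δ animals (libraries 3, 4, 7 and 8). The wild-type hosts were C57BL/6 UbcreERT2/+;Atg7+/+ mice given the same tamoxifen (libraries 1, 2, 5 and 6), so both groups carry the Cre recombinase and the drug. MB49 cells were placed at 2 sites in each mouse 1 week after tamoxifen on 4 days, and the tumors were taken 3 weeks after that. The recombinase is driven in nearly all tissues, so every host cell type is a target of the deletion, while the injected cancer cells carry no floxed Atg7. Host age and sex were not stated in the labels. Which tumors came from the same mouse is not recorded in them either, so p-values measure the spread between libraries.

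Cells hold cholesterol as free sterol in membranes and as esters in lipid droplets. Lipoprotein cholesterol taken into lysosomes leaves them through NPC2 and NPC1, is esterified by the enzyme that Soat1 encodes, or is carried out of the cell by ABCA1 and ABCG1 to apolipoproteins such as APOE. Oxysterols that build up with cellular cholesterol activate the nuclear receptor LXRα, the product of Nr1h3, and LXR target genes include Abca1, Abcg1, Apoe, Lpl and Mylip. Mylip encodes IDOL, a ubiquitin ligase that limits lipoprotein uptake. Lpl encodes lipoprotein lipase, which frees fatty acids from circulating triglyceride, and Plin2 encodes perilipin 2, a coat protein of lipid droplets. Lipid-laden macrophages are known for high Abca1, Apoe and Plin2.

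The region before the Abca1 start site is shown because Abca1 had the clearest values below. That before Mylip is shown because Mylip, like Abca1, lay apart by level between the host groups in the macrophage and fibroblast classes. Both are the 250 bases before the start in RefSeq on GRCm38.p6, written 5′ to 3′ along the gene, chr4:53159896-53160145 on the minus strand for Abca1 and chr13:45389492-45389741 on the plus strand for Mylip. Capitals mark the pair of half-sites closest to a DR4, the direct repeat of AGGTCA with 4 bases between that LXR binds together with RXR.
Abca1: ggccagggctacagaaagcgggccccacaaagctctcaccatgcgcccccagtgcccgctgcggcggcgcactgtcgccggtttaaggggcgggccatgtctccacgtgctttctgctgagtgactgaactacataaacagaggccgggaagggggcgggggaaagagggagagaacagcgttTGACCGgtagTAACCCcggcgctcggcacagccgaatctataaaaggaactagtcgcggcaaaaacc
Mylip: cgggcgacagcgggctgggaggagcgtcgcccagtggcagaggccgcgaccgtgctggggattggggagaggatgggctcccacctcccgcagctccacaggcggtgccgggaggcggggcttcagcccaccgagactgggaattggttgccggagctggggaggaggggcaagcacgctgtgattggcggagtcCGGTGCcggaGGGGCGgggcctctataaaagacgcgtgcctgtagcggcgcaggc
The Abca1 pair lies 67 to 52 bases before the start, at chr4:53159947-53159962, reads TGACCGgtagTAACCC along the gene and matches the repeat on the opposite strand with 3 mismatches. A pair at least that close was found in 21.9% of the 32851 windows of all genes (250 bases before and 50 after each start, both strands, overlaps allowed). The Mylip pair had 6 mismatches, and 99.8% of all windows held one with at most 5. RefSeq windows were found for 7 of the 10 genes, 10 windows in all, and not for Abcg1, Npc1 and Lpl. None of the 10 held a DR4, or a DR1 (the repeat with 1 base between, bound by PPAR with RXR), with up to 1 mismatch per half-site, against 1.75% and 2.4% of all windows. The only exact half-site AGGTCA was in the Plin2 window, on the opposite strand 218 to 213 bases before the start at chr4:86670272-86670277, and 16.3% of all windows held one. The search for the closest pair was chosen after the stricter search had found none.

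Of 29496 deposited cells, 28473 were kept. Total unique molecular identifiers (UMIs, counted RNA molecules) per library were fewest in deleted library 7 (4371773) and most in wild-type library 6 (59235799). Libraries 1 to 4 and libraries 5 to 8 are called 2 barcode sets here, each with 2 libraries of each genotype. The labels name no such sets, and what they stand for was not stated. Pairs of libraries shared 0 to 5 cell barcodes within libraries 1 to 4 and 7 to 46 within libraries 5 to 8. Pairs across the 2 sets shared 0 to 1. The most was 1.24% of the smaller library. Clusters were named from fixed markers and compared as 7 classes, written "-like": 9350 macrophage-like cells (monocytes included), 2759 neutrophil-like, 1893 fibroblast-like, 10378 malignant-like, 1812 T-like, 911 NK-like and 682 dendritic-like. The 10 genes and the genes of 7 lipid lists were kept out of the genes used for clustering. All 13 macrophage markers were in at least 5% of macrophage-like cells, with a summed level of 73.2 to 130 UMIs per 10000 in the deleted libraries and 59.8 to 98.4 in the wild-type libraries. Fibroblast markers in these cells summed to 0.888 to 53.2 in deleted libraries and to 0.113 to 2.36 in wild-type libraries (5 of 7 markers in at least 5% of cells), and their part in the macrophage results was not tested. Atg7 itself had 0.0938, 0.146, 0.0133 and 0.133 UMIs per 10000 in macrophage-like cells of deleted libraries 3, 4, 7 and 8, against 0.434, 0.324, 0.193 and 0.171 in wild-type libraries 1, 2, 5 and 6. It overlapped between the genotypes in the 6 other classes, and where the deleted exons lie relative to the counted 5′ reads was not stated.

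In bulk, summed or averaged values, fewer transcripts per cell and fewer cells with the transcript cannot be told apart. For a level, the UMIs of a gene were first scaled to 10000 UMIs in each single cell. These scaled values were then averaged within each class and library, with every cell counting equally. Levels therefore compare one gene across cells and not one gene with another. They are listed for libraries 3, 4, 7 and 8 of the deleted hosts and then for libraries 1, 2, 5 and 6 of the wild-type hosts.

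Across classes, Abca1, Abcg1, Apoe, Nr1h3 and Npc2 were highest in macrophage-like cells, Mylip, Npc1, Soat1 and Plin2 in neutrophil-like cells, and Lpl in fibroblast-like cells. Abca1 averaged 5.56 ± 3.62 in macrophage-like cells (SD, n = 8 libraries), 0.769 ± 0.576 in fibroblast-like cells, 0.747 ± 0.45 in neutrophil-like cells and 0.0966 ± 0.0996 in T-like cells. Ranges over libraries overlapped between each pair of neighbours in the Abca1 order. Averaging the deposited log value per cell instead of the scaled UMIs put 8 of the 10 genes highest in macrophage-like cells, against 5 by level. Endothelial-like cells reached 20 cells only in deleted libraries 3 and 4, where Abca1 had 2.61 and 2.33.

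**Figure D1:**
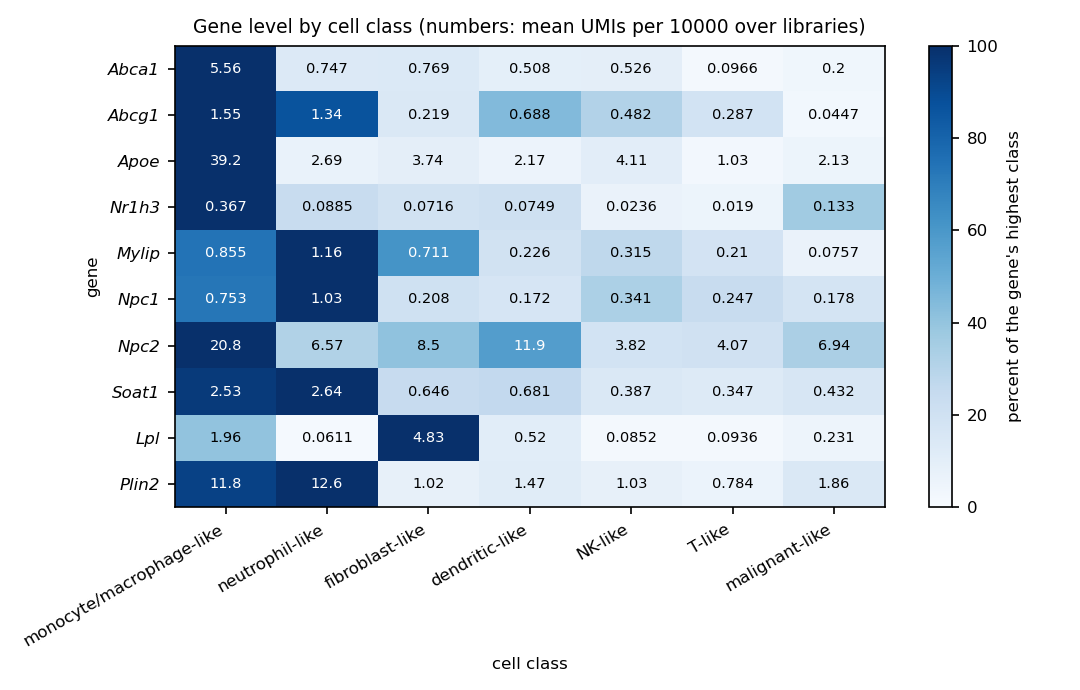
Heat map of the 10 genes (rows) in 7 cell classes (columns): the number in a cell is the mean level over libraries (UMIs per 10000), and the color is that level as a percent of the gene's highest class. Abca1 (5.56) and Apoe (39.2) are highest in macrophage-like cells, and Lpl (4.83) in fibroblast-like cells.

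Over 60 class-by-library points, the genes whose mean log value was most like that of Abca1 among 5708 genes were C1qc (Pearson r = 0.915), Trem2 (r = 0.907), C1qa (r = 0.905), Pid1 (r = 0.895) and Cacna1d (r = 0.893). Of the other members Apoe came closest (r = 0.877), followed by Abcg1 (r = 0.704), and Lpl was the least like it (r = 0.409). These points share libraries and depth, so the correlations are a description.

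In macrophage-like cells the efflux pump gene Abca1 stood highest in the deleted hosts. It had 10.1, 11.1, 5.92 and 7.04 UMIs per 10000 in deleted libraries, against 3.87, 2.83, 2.00 and 1.66 in wild-type libraries. Every deleted library lay above every wild-type library, and within each genotype the libraries 1 to 4 were higher than the libraries 5 to 8. Means were 8.54 ± 2.46 in deleted and 2.59 ± 0.985 in wild-type hosts (SD, n = 4 each), a ratio of 3.30, which was 3.17 in libraries 1 to 4 and 3.54 in libraries 5 to 8. The difference of the mean log value was 1.42 on the log2 scale (SE 0.35) and ran from 1.19 to 1.68 over the alternatives tried, among them cells thinned to 1000 UMIs (1.32), cells with a C1q UMI (1.42) and macrophage-like cells without their shallow cluster (1.36). Abca1 and the contrast were chosen on these values, so no p is given.

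Mylip, the other gene of the 10 with separate groups, had 1.15, 1.52, 1.08 and 0.894 in deleted libraries, against 0.732, 0.614, 0.513 and 0.326 in wild-type libraries. Its means were 1.16 ± 0.263 in deleted and 0.546 ± 0.172 in wild-type hosts (SD, n = 4 each), a ratio of 2.13. Its log2 difference was 0.26 (SE 0.11) on the mean log value, where the groups overlapped, and 0.89 on summed UMIs. With Abca1 it made 2 of 10 genes that lay apart by level with the deleted hosts higher. The share was 3.5% over the 5709 genes measured in this class. Abca1 was in the set because of this contrast, so the count says nothing about the set. None of the 10 lay apart in the other direction. No gene of the 5709 passed an adjusted p of 0.05 in limma in this class (0%). On summed UMIs 3 genes or 0.0525% passed, and 105 genes or 1.84% with the barcode set as a term. An unadjusted limma p under 0.05 was reached by 221 of the 5709, no more than that threshold would mark by chance.

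Apoe, the main apolipoprotein of macrophages, had the widest spread. It stood at 116, 76.7, 16.2 and 47.2 in deleted libraries, against 21.7, 21.7, 5.22 and 8.72 in wild-type libraries. The groups overlapped, because deleted library 7 lay below the pair of wild-type libraries at 21.7. The ratio of means was 4.47, with 64.0 ± 42.5 in deleted and 14.3 ± 8.62 in wild-type hosts (SD, n = 4 each), and it was 4.44 in libraries 1 to 4 and 4.55 in libraries 5 to 8. The partner pump Abcg1 overlapped, at 1.93, 1.82, 1.41 and 1.65 in deleted and 2.00, 1.69, 0.902 and 0.964 in wild-type libraries. Nr1h3, the receptor gene itself, was low everywhere, at 0.0778 to 0.429 in deleted and 0.262 to 0.582 in wild-type libraries.

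Genes of lysosomal exit and esterification showed little separation. Npc2 kept to a narrow band, 19.3 to 21.0 in deleted and 19.4 to 23.8 in wild-type libraries, and Npc1 had 0.434 to 1.03 in deleted and 0.590 to 0.983 in wild-type libraries. Soat1 had 1.80 to 2.90 in deleted and 1.92 to 3.09 in wild-type libraries. The lipase gene Lpl had 0.972 to 2.72 in deleted and 0.937 to 2.62 in wild-type libraries, the lower values coming from libraries 5 and 7. The droplet coat gene Plin2 had 13.2, 16, 11.2 and 17.3 in deleted libraries, against 12.7, 10.9, 5.93 and 6.92 in wild-type libraries. Only deleted library 7 (11.2) kept its groups from separating, and the ratio of means was 1.24 in libraries 1 to 4 and 2.22 in libraries 5 to 8.

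**Figure D2:**
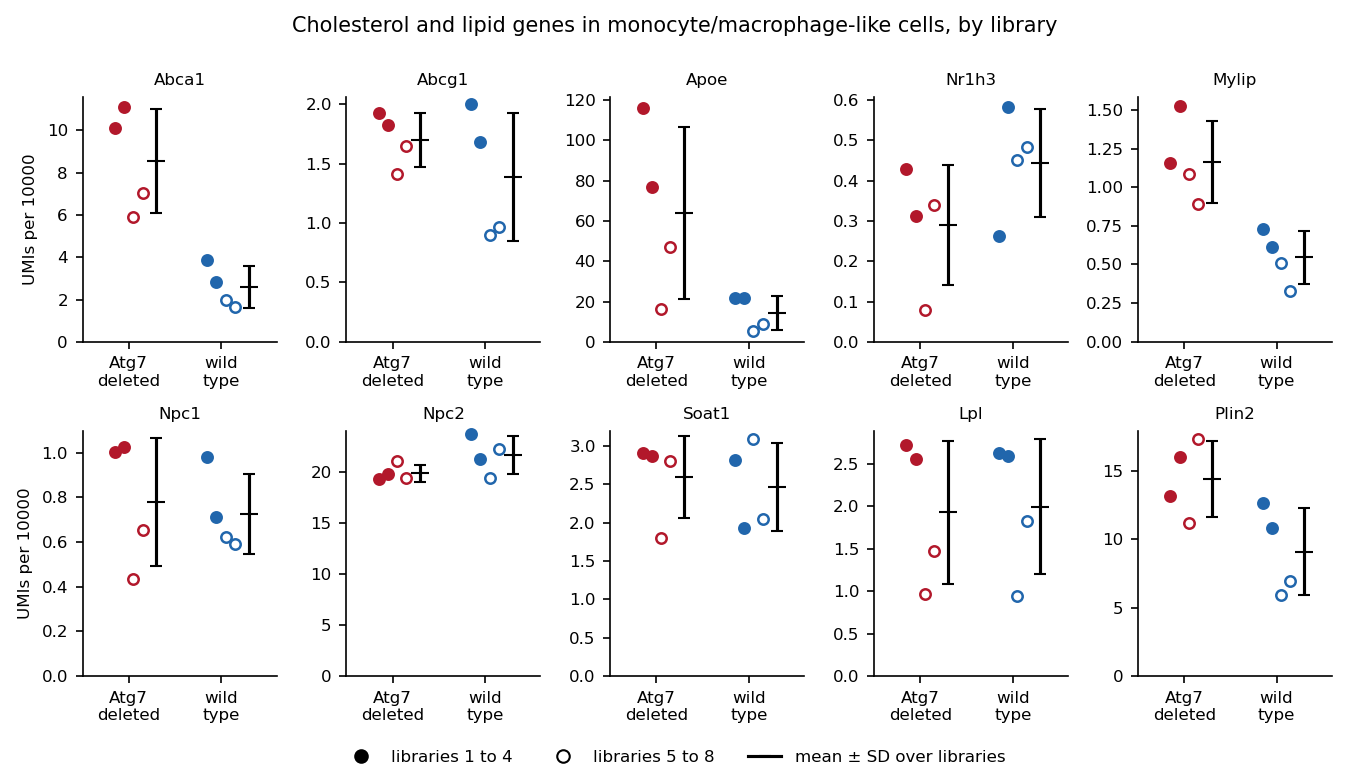
Level (UMIs per 10000) of each of the 10 genes in macrophage-like cells of deleted and wild-type hosts, one point per library, filled for libraries 1 to 4 and open for 5 to 8, with bars for the mean ± SD (n = 4 each, lower ends cut at 0). The 2 groups are apart for Abca1 and Mylip and overlap for the other genes.

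Macrophage-like cells had median depths of 1211 to 3598 UMIs in deleted and 1016 to 3779 in wild-type libraries, which overlapped (two-sided exact permutation p = 0.743). After each cell was thinned to 1000 UMIs, a UMI of Abca1 was found in 60.2%, 63.2%, 36.3% and 43.0% of macrophage-like cells of deleted libraries, against 30.2%, 21.7%, 10.5% and 12.8% in wild-type libraries. Without thinning the shares were 81.0%, 86.1%, 46.2% and 59.9% in deleted libraries, against 53.6%, 51.6%, 15.4% and 16.8% in wild-type libraries. In T-like cells the thinned share was 0.506% to 2.36% in deleted and 0% in each wild-type library (median depths of 2117 to 4451 and 2004 to 4433.5 UMIs). Whether these UMIs were free RNA was not tested.

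The macrophage-like class joined 6 clusters that were unevenly shared between libraries. The cluster led by Fabp5, Pf4, Ccl12 and Lgmn (3478 cells) was the only one with at least 20 cells in all 8 libraries, and its cells were shallow, with a median of 0.336 of their library's median UMI count. In it Abca1 had 3.42, 8.94, 6.52 and 7.01 in deleted libraries, against 2.92, 1.56, 2.14 and 1.73 in wild-type libraries, with no overlap. The cluster led by Mmp12, Arg1, Ctsl and Cd36 (2601 cells) had 6.82, 11.8 and 5.22 in deleted libraries 3, 4 and 8, against 3.97 and 3.04 in wild-type libraries 1 and 2. Of 2 clusters that came mostly from deleted library 3, one was led by Ccl8 and C1qa (85.8% of its cells) and the other by Mmp12 and Chil3 (95.4%). Within library 3, Apoe was 166 in the Ccl8 and C1qa cluster, 75.4 in the Mmp12 and Chil3 cluster and 41.8 in the Mmp12, Arg1, Ctsl and Cd36 cluster, while Plin2 was 7.23, 18.6 and 21.1 in the same order. The cluster led by Plac8, Lyz2, Chil3 and Ly6c2 (549 cells) had Abca1 at 1.37, Apoe at 8.93, Lpl at 0.145, Plin2 at 4.80 and Npc2 at 15.7. Within that cluster Abca1 was 1.05 to 2.77 in the 4 deleted libraries and 0.506 to 1.36 in the 3 wild-type libraries with at least 20 cells.

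Macrophage-like cells were also split within each library by state, after thinning to 1000 UMIs, and compared with the library as a block (limma, Benjamini-Hochberg adjustment over all genes tested). These splits pool both genotypes and did not use the host contrast. In cells with a UMI of Arg1, the arginase gene of alternatively activated and hypoxic macrophages, 4 of the 9 genes tested were higher than in cells without, beside 11.7% of the 3098 genes called in that split, and none was lower. Plin2 rose the most, with 14.1 ± 4.22 UMIs per 10000 in Arg1-positive and 8.19 ± 3.21 in Arg1-negative cells (SD, n = 8), a log2 difference of 0.97 (SE 0.10, adjusted p = 2.93e-05, limma) and higher in 8 of 8 libraries. Abca1 rose as well, at 11.8, 12, 6.09, 6.73, 4.34, 4.21, 2.20 and 2.22 in Arg1-positive cells of libraries 3, 4, 7, 8, 1, 2, 5 and 6, against 9.05, 9.75, 3.51, 6.14, 3.23, 1.91, 0.976 and 1.04 in Arg1-negative cells of the same libraries. Each library had more in its Arg1-positive cells (log2 difference 0.41, SE 0.08, adjusted p = 0.00296, limma). Deleted and wild-type libraries stayed apart for Abca1 in both states, with 6.09 to 12 in deleted and 2.20 to 4.34 in wild-type libraries with Arg1, and 3.51 to 9.75 in deleted and 0.976 to 3.23 in wild-type libraries without it.

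Npc2 and Soat1 were the other genes higher with Arg1. Npc2 had 23.3 ± 1.92 in Arg1-positive and 17.5 ± 2.68 in Arg1-negative cells (SD, n = 8; log2 difference 0.55, SE 0.13, adjusted p = 0.014, limma), and Soat1 had 2.81 ± 0.671 in Arg1-positive and 2.04 ± 0.651 in Arg1-negative cells (log2 difference 0.23, SE 0.05, adjusted p = 0.0127, limma), each higher in 8 of 8 libraries. Soat1 lost its call in cells thinned to 500 UMIs (adjusted p = 0.13), and with no detection filter both lost it (Npc2 0.14, Soat1 0.106). Apoe did not pass, at 30.9 ± 34.4 in Arg1-positive and 48.5 ± 49.5 in Arg1-negative cells (log2 difference −0.46, SE 0.23, adjusted p = 0.205, limma), lower in 5 of 8 libraries.

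With a UMI of a C1q gene (complement of resident-type macrophages), Apoe alone of 9 genes tested passed, beside 11.6% of 3090 genes called. It had 134, 88.0, 9.57, 73.3, 41.4, 30.9, 12.2 and 13.8 in C1q-positive cells of libraries 3, 4, 7, 8, 1, 2, 5 and 6, against 56.1, 47.3, 6.28, 19.6, 7.54, 11.8, 2.16 and 5.60 in C1q-negative cells. All 8 libraries had more in C1q-positive cells (log2 difference 1.31, SE 0.19, adjusted p = 0.000515, limma). Abca1 did not separate by C1q, with 5.52 ± 4.05 in C1q-positive and 5.13 ± 3.64 in C1q-negative cells (log2 difference 0.09, SE 0.08, adjusted p = 0.542, limma). Plin2 pointed the other way without passing (10.1 ± 3.97 in C1q-positive and 12.9 ± 5.05 in C1q-negative cells; log2 difference −0.33, SE 0.11, adjusted p = 0.0775, limma), and it passed on summed UMIs (0.0165) and without deleted library 7 (0.033). In cells thinned to 500 UMIs Abca1 passed as well (adjusted p = 0.0277), and with no detection filter Apoe did not (0.0576).

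Cxcl9, an interferon-induced chemokine gene, split 7 libraries. Plin2 was lower in Cxcl9-positive cells, 8.61 ± 2.89 against 11.6 ± 4.39 in Cxcl9-negative cells (SD, n = 7; log2 difference −0.48, SE 0.12, adjusted p = 0.0265, limma; lower in 6 of 7), and Nr1h3 was higher, 0.795 ± 0.333 in Cxcl9-positive against 0.360 ± 0.0893 in Cxcl9-negative cells (log2 difference 0.14, SE 0.04, adjusted p = 0.0372, limma; higher in 7 of 7). They were 2 of 10 genes tested, beside 2.06% of 3005 genes called, and both calls were lost when single libraries were left out (Nr1h3 without any 1 of the 7, adjusted p 0.0586 to 0.233; Plin2 without wild-type library 1, 2 or 6 or deleted library 4 or 8, adjusted p 0.0766 to 0.233). Abca1 had 4.41 ± 3.53 in Cxcl9-positive and 5.50 ± 4.20 in Cxcl9-negative cells (log2 difference −0.22, SE 0.08, adjusted p = 0.184, limma).

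**Figure D3:**
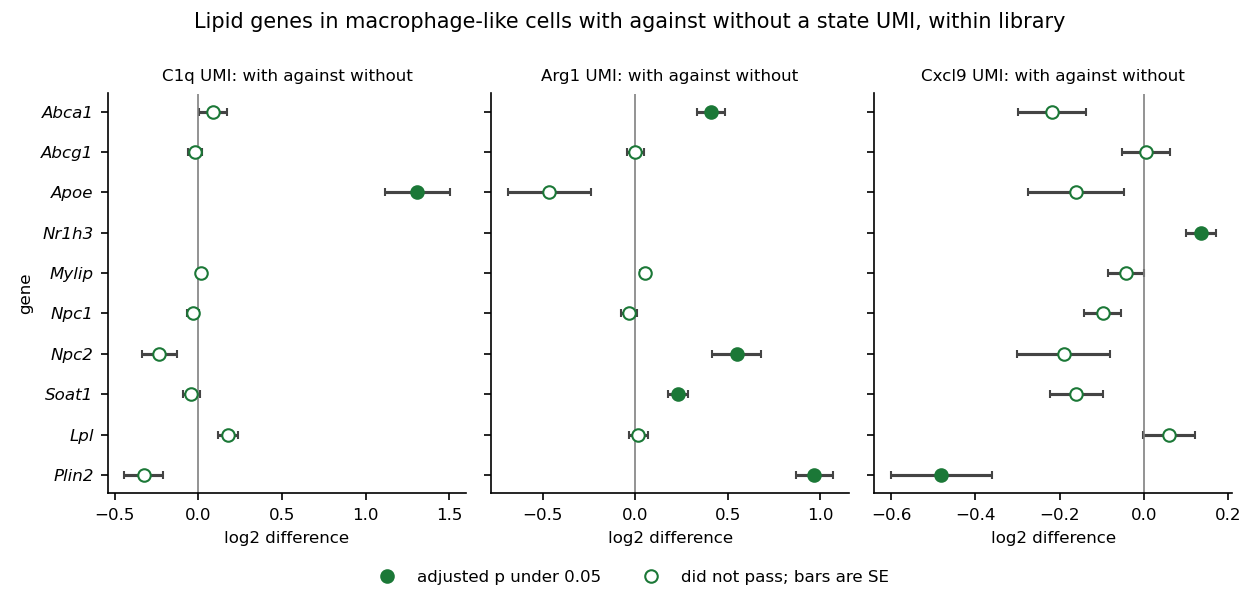
Log2 difference of the mean log value between macrophage-like cells with and without a UMI of C1q, Arg1 or Cxcl9, thinned to 1000 UMIs, for each gene tested (bars ± SE; 8, 8 and 7 libraries; filled points have a limma adjusted p under 0.05). Apoe is highest for C1q, Plin2 is highest for Arg1, where Npc2, Abca1 and Soat1 also passed, and Plin2 is lowest for Cxcl9.

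The shares of these states among thinned macrophage-like cells were 82.8%, 69.8%, 37.1% and 53.9% with C1q in deleted libraries, against 47.8%, 50.7%, 22.0% and 45.7% in wild-type libraries, and 50.2%, 76.0%, 70.2% and 48.4% with Arg1 in deleted libraries, against 59.4%, 36.4%, 30.7% and 41.0% in wild-type libraries. Cxcl9-positive cells made up 6.50%, 7.28%, 0.806% and 2.82% in deleted libraries, against 8.28%, 16.5%, 11.8% and 18.2% in wild-type libraries. The Cxcl9 shares did not overlap (two-sided exact permutation p = 0.0286, the smallest that 4 against 4 allows, adjusted p = 0.41 over 43 values). Without thinning they were 16.7%, 18.0%, 1.43% and 4.33% in deleted libraries, against 13.5%, 29.1%, 14.0% and 19.1% in wild-type libraries, and overlapped.

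Some other genes of the pathway were called between states, and the share called over all genes is given beside them. Of the lists fixed for this work, the LXR-related list gave 1 of 7 genes higher and 2 lower in Arg1-positive cells, where 11.7% of all genes were called. Scd2, a fatty acid desaturase, rose (log2 difference 0.30, SE 0.06, adjusted p = 0.00395, limma). Pltp, the phospholipid transfer protein, fell (−0.39, SE 0.09, adjusted p = 0.00987, limma), as did Arl4c, a small GTPase (−0.32, SE 0.06, adjusted p = 0.00287, limma). In the uptake list 2 of 6 genes rose with Arg1, the scavenger receptors Cd36 (log2 difference 0.46, SE 0.09, adjusted p = 0.00507, limma) and Msr1 (0.52, SE 0.09, adjusted p = 0.00283). Among genes of fatty acid binding and oxidation 2 of 8 rose, Fabp5, a fatty acid carrier (1.29, SE 0.13, adjusted p = 2.89e-05, limma), and Acsl4, an acyl-CoA synthetase (0.14, SE 0.04, adjusted p = 0.0275). The droplet list had 1 of 6 higher, Hilpda, an inhibitor of the droplet lipase (0.66, SE 0.08, adjusted p = 0.000177, limma). Of 8 lysosomal genes Psap, the saposin precursor, rose (0.55, SE 0.06, adjusted p = 3.66e-05, limma) and Pla2g15, a lysosomal phospholipase, fell (−0.09, SE 0.02, adjusted p = 0.0211).

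In C1q-positive cells (11.6% of all genes called) Pltp rose in 8 of 8 libraries (log2 difference 0.40, SE 0.09, adjusted p = 0.00922, limma), 1 of 7 LXR-related genes. Of 6 uptake genes the receptors Stab1 (0.19, SE 0.03, adjusted p = 0.00157, limma) and Trem2 (0.21, SE 0.04, adjusted p = 0.00179) rose, and 1 not named here was called lower. Lamp1, a lysosomal membrane protein (0.39, SE 0.11, adjusted p = 0.0304, limma), and Pla2g15 (0.11, SE 0.03, adjusted p = 0.0266) rose, 2 of 8 lysosomal genes, and Hilpda fell (−0.31, SE 0.09, adjusted p = 0.0354), 1 of 7 droplet genes. In Cxcl9-positive cells (2.06% of all genes called) Cd36 alone of the list genes was called, 1 of 6 uptake genes. It was lower (−0.24, SE 0.07, adjusted p = 0.0435, limma). Medians over the lists lay between −0.06 and 0.11 in these splits, beside −0.00862 to 0.00542 over all genes tested.

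Between the genotypes, the pathway lists in macrophage-like cells are given as levels only. Among 11 LXR-related genes measured, Pltp (1.30 to 4.38 in deleted and 0.391 to 1.28 in wild-type libraries) and Smpdl3a, a phosphodiesterase gene (1.80 to 3.03 in deleted and 0.715 to 1.28 in wild-type libraries), lay apart by level with the deleted hosts higher, beside 3.5% of all genes. Of 6 uptake genes Trem2, a lipid receptor of macrophages, did so as well, at 1.66, 1.98, 1.95 and 2.02 in deleted libraries, against 1.10, 1.04, 0.442 and 0.865 in wild-type libraries. Cd36 overlapped (3.17 to 7.62 in deleted and 1.39 to 4.39 in wild-type libraries). Of 14 fatty acid genes Slc27a4, a fatty acid transporter, lay apart by level with 0.265 to 0.461 in deleted and 0.130 to 0.260 in wild-type libraries, and it is named here after its values were seen. On the mean log value Pltp, Smpdl3a, Trem2, Slc27a4 and the sterol gene Srebf2 overlapped between the hosts. No lysosomal gene of 13 lay apart, though Psap had 67.2 to 127 in deleted and 63.2 to 77.2 in wild-type libraries and Lamp1 8.13 to 13.5 in deleted and 6.64 to 9.38 in wild-type libraries. Fabp5 (9.92 to 25.9 in deleted, 19.6 to 36.5 in wild type), Acsl4 (1.19 to 2.01 in deleted, 0.739 to 1.41 in wild type), Bscl2 (0.451 to 0.976 in deleted, 0.484 to 0.623 in wild type), Hilpda (2.72 to 5.14 in deleted, 4.23 to 7.08 in wild type), Tspo (3.71 to 6.82 in deleted, 3.64 to 8.57 in wild type) and Apobec1 (0.464 to 2.53 in deleted, 0.995 to 1.73 in wild type) all overlapped. In the sterol synthesis list Srebf2, the gene of the master regulator SREBP2, was the 1 of 7 apart and was lower in deleted hosts, at 0.208, 0.309, 0.262 and 0.238, against 0.593, 0.421, 0.562 and 0.467 in wild-type hosts. Msmo1 overlapped (0.187 to 0.362 in deleted, 0.218 to 0.615 in wild type). Levels lay apart with the deleted hosts lower for 2.52% of all genes of this class.

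In fibroblast-like cells the same efflux gene and the lipase gene were both higher in every deleted library. Abca1 had 1.70, 1.35, 1.11 and 0.886 in deleted libraries, against 0.389, 0.309, 0.282 and 0.137 in wild-type libraries. There was no overlap, and means were 1.26 ± 0.348 in deleted and 0.279 ± 0.105 in wild-type hosts (SD, n = 4 each), a ratio of 4.51. The log2 difference was 0.61 (SE 0.12) and just missed the threshold, with an adjusted p of 0.053 in limma, and it passed with the barcode set as a term (adjusted p = 0.0038) and without deleted library 7 (0.0244) or 8 (0.0121). It did not pass on summed UMIs (0.0996) or in cells thinned to 1000 UMIs, where the difference was 0.39 and the groups overlapped (0.143), and its adjusted p over all alternatives was 0.0038 to 0.267.

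Lpl had 11.1, 6.03, 8.94 and 4.15 in deleted libraries, against 1.96, 3.21, 2.26 and 0.991 in wild-type libraries, again with no overlap. Means were 7.56 ± 3.10 in deleted and 2.1 ± 0.913 in wild-type hosts (SD, n = 4 each), a ratio of 3.60 (log2 difference 1.47, SE 0.28, adjusted p = 0.053, limma; 0.0108 with the barcode set, 0.0492 without deleted library 4 and 0.00757 without 8, but 0.138 on summed UMIs and 0.104 in thinned cells). In these cells Lpl stood at 54.3% to 920% of its level in macrophage-like cells of the same library, and it was below that level only in wild-type libraries 1 and 6. Mylip had 0.697, 1.17, 1.76 and 0.684 in deleted libraries, against 0.454, 0.188, 0.202 and 0.530 in wild-type libraries, a ratio of 3.14 (log2 difference 0.43, SE 0.09, adjusted p = 0.0884, limma; 0.0258 with the barcode set and 0.0269 without deleted library 8, but 0.138 on summed UMIs). In thinned cells its difference was 0.18 and the groups overlapped (adjusted p = 0.396, limma).

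Abca1, Lpl and Mylip were 3 of 9 genes tested that lay apart with deleted hosts higher, beside 3.44% of 9222 genes in fibroblast-like cells. limma called 0.0434% of these genes and none of the 9, and with the barcode set it called 1.04% and the 3 named. The other members overlapped, among them Npc2 at 7.25 to 9.46 in deleted and 7.36 to 9.70 in wild-type libraries, Plin2 at 0.516 to 1.56 in deleted and 0.412 to 1.75 in wild-type libraries, and Apoe at 0.168 to 11.8 in deleted and 0.0248 to 6.26 in wild-type libraries. Wild-type libraries held only 33 to 64 fibroblast-like cells each, against 71 to 900 in deleted libraries, with median depths of 2822 to 15686 UMIs in deleted and 4428 to 11098 in wild-type libraries (two-sided exact permutation p = 0.343). Macrophage markers summed to 1.39 to 9.12 in deleted and 2.27 to 5.11 in wild-type libraries in these cells, and Abca1 was at 8.26% to 18.7% of its macrophage level. Macrophage genes stood at 1.03% to 28.2% (C1qa), 0% to 7.75% (C1qb), 0.797% to 6.64% (C1qc), 0.858% to 6.80% (Lyz2), 0% to 6.12% (Adgre1), 0% to 13.8% (Csf1r), 0% to 6.95% (Cd68) and 0% to 6.22% (Mrc1) of theirs. Adipocyte markers, which matter for Lpl, summed to at most 0.102 in deleted libraries and to 0 in wild-type libraries, with Lep at 0. The part of macrophage RNA in the Abca1 difference was not tested. Of the lipid lists no gene passed here. In the sterol synthesis list 6 of 17 genes lay apart with deleted hosts lower (among them Cyp51, Fdps, Hmgcs1 and Srebf2), beside 2.26% of all genes, and the list's median log2 difference was −0.11, against 0.01 over all genes.

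**Figure D4:**
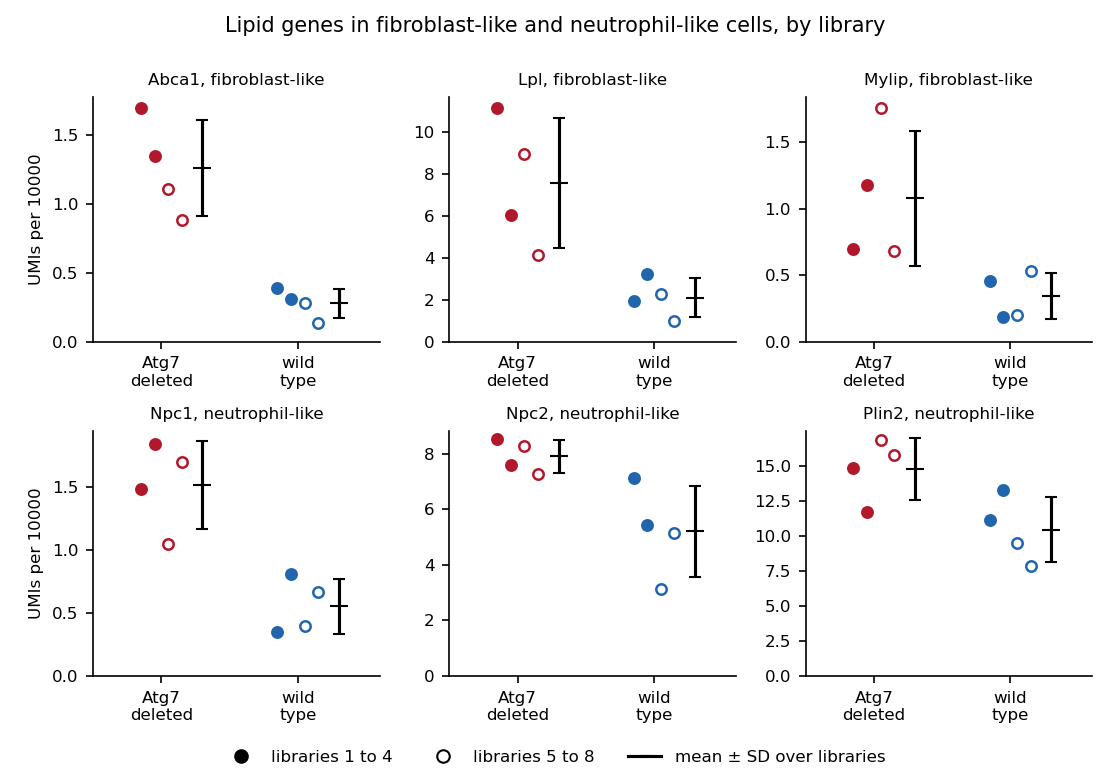
Level (UMIs per 10000) of lipid genes in fibroblast-like and neutrophil-like cells of deleted and wild-type hosts, one point per library, filled for libraries 1 to 4 and open for 5 to 8, bars mean ± SD (n = 4 each). Abca1, Lpl and Mylip are apart in fibroblast-like cells, and Npc1 and Npc2 in neutrophil-like cells.

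In neutrophil-like cells the levels of the lysosomal pair did not overlap between the hosts, although neither gene passed without the barcode set as a term. Npc1, the lysosomal cholesterol exporter, had 1.48, 1.84, 1.04 and 1.70 in deleted libraries, against 0.347, 0.807, 0.393 and 0.663 in wild-type libraries. No library overlapped, and the ratio of means was 2.74 (1.52 ± 0.347 in deleted and 0.552 ± 0.220 in wild-type hosts; SD, n = 4 each). Its log2 difference of 0.31 (SE 0.10) did not pass in limma (adjusted p = 0.163) and passed with the barcode set (0.0404), a fit that called 7.51% of the 2330 genes tested. Npc2, its soluble partner, had 8.54, 7.60, 8.29 and 7.26 in deleted libraries, against 7.14, 5.43, 3.13 and 5.15 in wild-type libraries, apart as well by level but overlapping on the mean log value (ratio 1.52; log2 difference 0.56, SE 0.27, adjusted p = 0.3, limma). They were 2 of 8 genes apart with deleted hosts higher, beside 7.68% of all genes in this class, where limma called 0.129%.

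Plin2 was as high in neutrophil-like as in macrophage-like cells, with 14.8, 11.7, 16.9 and 15.7 in deleted libraries, against 11.1, 13.2, 9.51 and 7.85 in wild-type libraries (log2 difference 0.69, SE 0.34, adjusted p = 0.305, limma). Wild-type library 2 lay above deleted library 4. Abca1 overlapped, at 0.899, 1.73, 0.624 and 0.807 in deleted and 0.304, 0.528, 0.755 and 0.332 in wild-type libraries, and so did Soat1, with 1.79 to 3.02 in deleted and 1.95 to 4.68 in wild-type libraries. Apoe had 9.51, 8.35, 0 and 0.944 in deleted and 0.552, 1.6, 0.196 and 0.405 in wild-type libraries (log2 difference 0.97, SE 0.39, adjusted p = 0.232, limma; 0.0213 with the barcode set). Deleted library 7 had 39 neutrophil-like cells, the fewest of any library. Median depths of neutrophil-like cells were 814 to 1912.5 UMIs in deleted and 670 to 1253 in wild-type libraries (two-sided exact permutation p = 0.371). The part of depth in the values of this class was not tested. Macrophage markers summed to 7.38 to 15.3 in deleted and 7.99 to 16.8 in wild-type libraries here, and their part in the Apoe values was not tested.

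Abca1 was low in the remaining classes. Malignant-like cells were named from urothelial markers, and the injected line they are named for carries no floxed Atg7. In them Abca1 had 0.247, 0.635, 0.313 and 0.126 in deleted libraries, against 0.196, 0.0479, 0.0182 and 0.0140 in wild-type libraries. The levels overlapped, because wild-type library 1 lay above deleted library 8, while the mean log value rose by 0.15 on the log2 scale (SE 0.03, adjusted p = 0.0114, limma). It was 1 of 7 genes tested that passed, beside 0.173% of 9239 genes called higher (16.6% in either direction), and it missed the threshold on summed UMIs with a pseudocount of 1 (adjusted p = 0.0765). Abca1 stood at 0.847% to 5.73% of its macrophage level in these cells, and C1qa, a macrophage gene, at 0.156% to 8.98% of its own. Deleted libraries held 48 to 148 malignant-like cells with median depths of 1477.5 to 14967 UMIs, against 1234 to 4159 cells and 9595 to 16621 UMIs in wild-type libraries. Urothelial markers in these cells summed to 18.1 to 29.0 in deleted and 28.6 to 42.6 in wild-type libraries. Fibroblast markers summed to 0.953 to 18.9 in deleted and 0.0931 to 2.36 in wild-type libraries. Macrophage markers summed to 0.533 to 7.72 in deleted and 0.580 to 3.17 in wild-type libraries. Mast markers reached 7.62 in deleted and 0.00208 in wild-type libraries. The part of free macrophage RNA, of other cells in the class and of depth in the Abca1 difference was not tested.

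**Figure D5:**
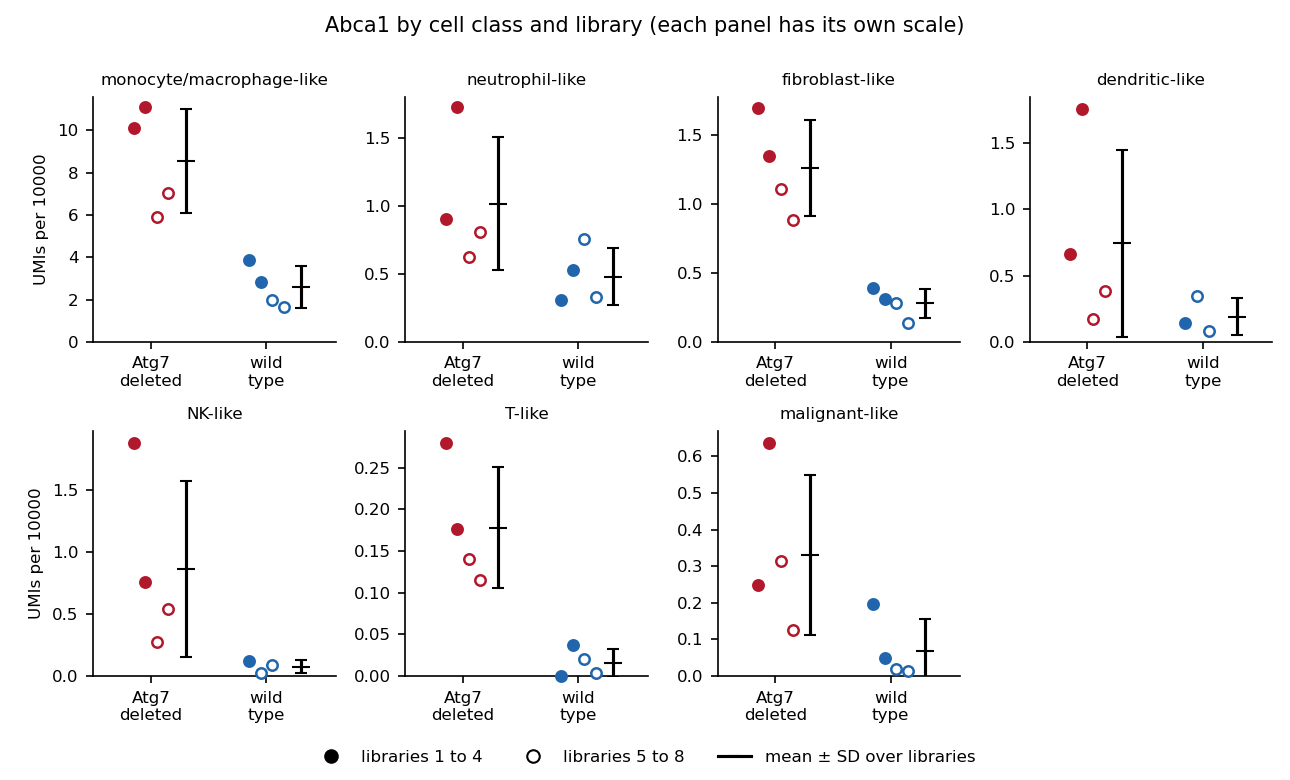
Abca1 level (UMIs per 10000, each panel with its own linear axis) in 7 classes for deleted and wild-type hosts, one point per library, filled for libraries 1 to 4 and open for 5 to 8, with bars for the mean ± SD (lower ends cut at 0). Deleted libraries lie above wild-type libraries without overlap in macrophage-like, fibroblast-like, NK-like and T-like cells.

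Apoe and Plin2 passed in malignant-like cells only with the barcode set, and for Apoe also without deleted library 7. Apoe had 7.81, 6.71, 0.0188 and 1.40 in deleted and 0.576, 0.363, 0.0598 and 0.137 in wild-type libraries (log2 difference 0.90, SE 0.35, adjusted p = 0.0839, limma; 0.0225 without deleted library 7 and 0.00888 with the barcode set), and Plin2 had 3.15, 4.43, 1.31 and 1.52 in deleted and 1.75, 1.44, 0.649 and 0.599 in wild-type libraries (log2 difference 0.34, SE 0.19, adjusted p = 0.2, limma; 0.036 with the barcode set, a fit that called 29.8% of genes). In the same cells 17 of 19 sterol synthesis genes were called lower, beside 16.5% of all genes, and all 19 had a negative difference. Among those called, Sqle (squalene epoxidase) fell by 0.65 (log2, SE 0.06, adjusted p = 0.000166, limma). On summed UMIs 12 of the 19 were called lower, beside 0.725% of all genes, and in cells thinned to 1000 UMIs 3 of the 8 that could be tested, beside 0.201%. The part of depth and of other cells in the class in these differences was not tested.

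NK-like and T-like cells had Abca1 apart at low levels. In NK-like cells it had 1.88, 0.759, 0.271 and 0.540 in deleted libraries, against 0.119, 0.0230 and 0.0884 in wild-type libraries 2, 5 and 6 (log2 difference 0.36, SE 0.11, adjusted p = 0.218, limma). Wild-type library 1 held 6 NK-like cells and was left out. Abcg1 had 0.715, 0.771, 0.447 and 0.615 in deleted and 0.0706, 0.437 and 0.317 in wild-type libraries (log2 difference 0.27, SE 0.08, adjusted p = 0.173), and Plin2 had 2.87, 1.41, 0.544 and 1.17 in deleted and 0.444, 0.318 and 0.445 in wild-type libraries (log2 difference 0.43, SE 0.18, adjusted p = 0.326). These were 3 of 8 genes apart with deleted hosts higher, beside 5.18% of 7562 genes, and limma called 0.529% of all genes and none of the 8. On summed UMIs Abca1 (adjusted p = 0.0254), Abcg1 (0.00994) and Mylip (0.0392) passed, in a fit that called 8.01% of genes, and with the barcode set they did not (0.0761, 0.09 and 0.219). NK-like Abca1 was 1.15% to 18.6% of the macrophage level and C1qa 0% to 16.3%. NK markers in these cells summed to 3.96 to 6.19 in deleted and 5.49 to 7.16 in wild-type libraries. T markers summed to 7.49 to 18.1 in deleted and 16.3 to 23.9 in wild-type libraries. Macrophage markers summed to 9.38 to 28.2 in deleted and 8.56 to 16.9 in wild-type libraries. The part of other cells in the class was not tested. Median depths were 2434.5 to 5416 UMIs in deleted and 1624 to 2359.5 in wild-type libraries, with no overlap (two-sided exact permutation p = 0.0571, the smallest that 4 against 3 allows).

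T-like cells had Abca1 at 0.280, 0.177, 0.141 and 0.115 in deleted libraries, against 0, 0.0370, 0.0202 and 0.00416 in wild-type libraries. It was in too few cells for the fit. Its levels did not overlap (two-sided exact permutation p = 0.0286, the smallest that 4 against 4 allows, not adjusted). Its thinned share of cells had the same p in that test and an adjusted p of 0.41 over 43 values. At 0% to 2.77% of the macrophage level, Abca1 lay beside C1qa at 0% to 3.52%. None of the 6 genes tested lay apart or passed in this class without the barcode set as a term, beside 6.75% of 6206 genes apart with deleted hosts higher and 1.47% called. Abcg1 had 0.489, 0.554, 0.228 and 0.457 in deleted and 0.315, 0.118, 0.0422 and 0.0942 in wild-type libraries (log2 difference 0.15, SE 0.06, adjusted p = 0.216, limma; 0.0283 with the barcode set), and Apoe 4.44, 2.85, 0.0545 and 0.295 in deleted and 0.293, 0.265, 0.0335 and 0.0186 in wild-type libraries (log2 difference 0.75, SE 0.28, adjusted p = 0.223; 0.00226 with the barcode set, a fit that called 6.09% of genes).

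In dendritic-like cells Lpl had 1.99, 0.621, 0.226 and 0.469 in deleted libraries, against 0.132, 0 and 0.198 in wild-type libraries 2, 5 and 6 (log2 difference 0.23, SE 0.09, adjusted p = 0.343, limma), and Mylip had 0.502, 0.184, 0.306 and 0.239 in deleted and 0.0897, 0.127 and 0.136 in wild-type libraries (log2 difference 0.13, SE 0.05, adjusted p = 0.343). Both lay apart, 2 of 9 genes, beside 5.99% of 7418 genes, and limma called 0.027%. Abca1 overlapped (0.665, 1.76, 0.176 and 0.382 in deleted, 0.143, 0.347 and 0.0825 in wild-type libraries), and Abcg1 had 1.6, 0.648, 0.497 and 0.673 in deleted and 0.611, 0.440 and 0.348 in wild-type libraries (log2 difference 0.30, SE 0.13, adjusted p = 0.348, limma). Npc2, second highest here after macrophage-like cells, had 8.64 to 12.7 in deleted and 11 to 14.9 in wild-type libraries. Median depths of dendritic-like cells were 4154 to 9591 UMIs in deleted and 2731 to 4280 in wild-type libraries (two-sided exact permutation p = 0.114). Over libraries, C1qa stood at 0% to 20.2% and C1qb at 1.13% to 36.8% of their macrophage level. Abca1 stood at 2.97% to 17.4% of its own. The part of depth and of macrophage RNA in these values was not tested.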

How the data were processed

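Single-cell matrices of 8 tumors, 4 of deleted and 4 of wild-type hosts, were used. The authors deposited the natural log of 1 plus UMIs per 10000 UMIs of a cell, and per the submitters' processing notes Cell Ranger 2.1, Seurat 3.0 and mm10 were named. Whole UMIs were recovered for all values within 0.01. Cells with over 10% mitochondrial UMIs or under 200 genes were removed (919 cells). A doublet caller marked 0.386% of the cells it was given, too small a share for the filter to have worked; 104 more cells went by it, and doublets remain. Clustering used 2000 variable genes, 30 components, 15 neighbors and resolution 1 (scanpy 1.11.5, igraph 0.11.9), and clusters were named from fixed markers with a scoring rule set after clusters were seen.

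Classes with at least 20 cells in a library were compared on the mean deposited log value divided by ln 2, over genes in at least 5% of cells, with limma 3.58.1 (R 4.3.3, trend, Benjamini-Hochberg adjustment over all genes tested). The plan kept count models for deposited raw counts, and the deposited unit is a log value. Count models were therefore not used, although whole UMIs were recovered. The planned design was kept otherwise. Single values had exact permutation tests (scipy 1.17.1), for which 4 libraries against 4 cannot go below 0.0286 and 4 against 3 not below 0.0571. The fits were tested on simulated data. Depth sets precision: libraries held 4371773 to 59235799 UMIs and 941 to 5796 kept cells.

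The members and lists were chosen with earlier results of these data known. All 10 members are described, and list genes were named by a rule: the 2 with the largest absolute difference per list in macrophage-like cells, and up to 4 called per list elsewhere, with the 5 genes most like Abca1. Figures used matplotlib 3.10.9. Alternatives were summed UMIs (pseudocounts 0.1 and 1, median-ratio scaling), no detection filter, a barcode set term, thinning, clustering resolution 0.5, lipid genes in the clustering, and leaving out each library. Cells with a C1q UMI were planned, while leaving out the shallow cluster and using the mean log value for class levels were added after seeing the data. A few list genes are not reported here.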

Additional observations from a re-analysis of the deposited data

Results flagged for a closer look

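Of 120 groups of 4 libraries examined for a single library far from the others, 11 held one, and chance marks about 1 group in 20. In fibroblast-like cells Soat1 had 0.986 in deleted library 4, with the next library at 0.632. In macrophage-like cells Soat1 was lowest in deleted library 7, at 1.80 with the next at 2.80. In T-like cells Plin2 had 1.46 in deleted library 3 (next 0.918) and 1.15 in wild-type library 1 (next 0.401). In dendritic-like cells Abcg1 had 1.6 in deleted library 3 (next 0.673). In NK-like cells Lpl had 0.479 in deleted library 3 (next 0.0616), and in neutrophil-like cells 0.0413 in wild-type library 2, where the others were at 0. In malignant-like cells Abcg1 had 0.183 in deleted library 4 (next 0.0216), Mylip 0.400 in deleted library 3 (next 0.0515), Nr1h3 0.185 in wild-type library 1 (next 0.0591) and Lpl 0.345 in wild-type library 1 (next 0.0213). All values are UMIs per 10000.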

How the results depend on the processing

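No paired analysis was made, because the labels tie no tumor to a mouse and pair no deleted library with a wild-type library. The endothelial-like comparison could not be fitted, since no wild-type library held 20 such cells, and at resolution 0.5 no NK-like class formed. Over 75 member comparisons with a test and 1053 alternatives, 944 kept direction and side of the threshold, 23 lost a call, 30 gained one and 56 changed sign, none of the last among called members. Over 21 comparisons of called list genes, 219 of 268 alternatives held the call and 49 lost it. Where no cause is given, the cause was not tested.

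Counts of genes called between the genotypes moved more. In macrophage-like cells (0 by limma) they were 3 on summed UMIs with a pseudocount of 0.1, 4 with median-ratio scaling and 105 with the barcode set. In dendritic-like cells (2) they were 4, 1 (pseudocount 1), 4, and 22 with the barcode set, 0 thinned, 5 with lipid genes in the clustering, and 0 to 8 leaving out a library. In neutrophil-like cells (3) they were 6, 9, 0, 0 with no filter, 175 with the set, and 0 to 10. In fibroblast-like cells (4) they were 7 with median-ratio scaling, 96 with the set, 1 thinned, and 3 to 45. In malignant-like cells (1538) they were 77, 44, 96, 2755 with the set, 5 thinned, and 488 to 2023. In T-like cells (91) they were 181, 172, 3 with no filter, 378 with the set, 57 thinned, 0 at resolution 0.5, 36 with lipid genes, and 10 to 52. In NK-like cells (40) they were 606, 520, 549, 0 with no filter, 111 with the set, 8 thinned, and 0 to 123. Calls higher in deleted hosts were 3 of 4 against 6 of 6 on summed UMIs in fibroblast-like cells, 16 of 1538 against 10 of 77 in malignant-like cells, and 1 of 40 against 272 of 606 in NK-like cells. Median-ratio scaling moved the median of all genes in neutrophil-like cells from 0.08 to −0.19 (log2).

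Between states, calls were 52 with no filter and 216 to 441 leaving out a library for C1q (357), 70 with no filter, 234 at 500 UMIs, 238 with lipid genes and 233 to 399 for Arg1 (361), and 41 on summed UMIs, 6 with no filter, 32 at 500 UMIs and 21 to 73 for Cxcl9 (62). Of the 10 members, 8 were highest in macrophage-like cells by the mean deposited log value, in thinned cells, at resolution 0.5 and with lipid genes in the clustering, against 5 by level.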
